A study of Mus musculus with 31 samples.

Results

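Arrays of dissected mouse brain tissue that read high for Mog were compared with arrays that read low for it. The aim was to describe which other transcripts went with Mog level from piece to piece, and myelin content itself was not measured. Mog encodes myelin oligodendrocyte glycoprotein, a protein of the outer face of the myelin sheath. All 31 arrays of the study were ranked by the authors' processed log2 value of Mog, taken from its brighter probe (ILMN_1259536), and the 8 highest (Mog-high) were set against the 8 lowest (Mog-low), whatever the genotype. These are 16 of 31 arrays, and the other 15 lay between them. The arrays were thus chosen by their Mog values alone, and both Mog probes were left out of every test.

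The tissue was the bed nucleus of the stria terminalis and preoptic area (BNST/POA), forebrain regions with known sex differences, from MF1 mice aged 152 days in the Sex Chromosome Trisomy model of Klinefelter syndrome. The groups were 8 XXY males (XXY.Sry in the array names), 8 XY males (XY.Sry), 7 XX males (XXSry) and 8 XX females (XX). Sry, the testis-determining gene, stands in the array names of all 3 male groups, and the series asked whether XXY males show feminized gene expression. The labels speak of biological replicates but not of separate animals, and every p-value therefore refers to the spread among arrays, which may be partly technical.

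Myelin is the lipid-rich membrane that oligodendrocytes wrap around axons. Mature oligodendrocytes make its proteins and its characteristic lipids, while their precursors express other genes and divide. In the ventral forebrain, myelinated fibre tracts run beside and through nuclei that hold less myelin. In bulk RNA, fewer cells of a type and less RNA per cell cannot be told apart.

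In Mog-high arrays the processed Mog values, from the highest, were 11.84 (XXY male 1), 11.79 (XXY male 7), 11.68 (XY male 3), 11.67 (XY male 8), 11.65 (XY male 7), 11.56 (XXY male 6), 11.53 (XX male 5) and 11.48 (XX male 1). In Mog-low arrays they were 11.18 (XX female 1), 11.17 (XY male 2), 11.17 (XXY male 5), 11.14 (XX male 6), 11.05 (XX male 3), 10.95 (XX female 6), 10.91 (XX male 7) and 10.79 (XX female 2). The sides differed by 0.60 in mean log2 value, or 1.52-fold, which is a result of the choice and carries no test. Just outside the sides stood XX female 7 at 11.44 and XX female 8 at 11.24, so neither side was cut off by a gap. The dimmer Mog probe (ILMN_2615034), which the rule did not use, had a lowest, median and highest value of 11.09, 11.20 and 11.45 in Mog-high arrays, against 10.41, 10.69 and 11.07 in Mog-low arrays. On that probe too the sides did not overlap.

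**Figure D1:**
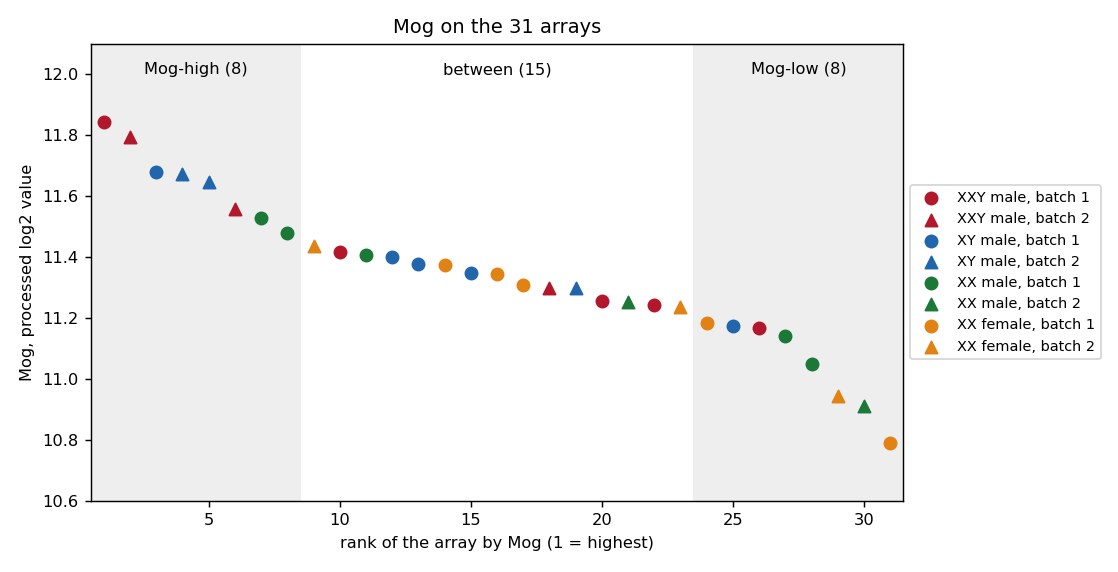
Processed log2 value of Mog (vertical axis) on each of the 31 arrays, ordered by rank (horizontal axis), with genotype group by colour and batch by symbol; the shaded ends are the 8 Mog-high arrays on the left and the 8 Mog-low arrays on the right. No XX female is among the Mog-high arrays, and the values run on without a gap at either limit, at 11.48 against 11.44 and at 11.24 against 11.18.

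The genotypes were not spread evenly. Mog-high arrays held 3 XXY males, 3 XY males, 2 XX males and 0 XX females, while Mog-low arrays held 1 XXY male, 1 XY male, 3 XX males and 3 XX females. Carriers of a Y chromosome thus made up 6 of the Mog-high and 2 of the Mog-low arrays. Of the batches named in the descriptions, Mog-high arrays had 4 from batch 1 and 4 from batch 2, and Mog-low arrays had 6 from batch 1 and 2 from batch 2. In batch 2 all 4 Mog-high arrays came from XXY or XY males and both Mog-low arrays from XX animals, so there genotype and Mog level cannot be told apart.

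Between 12939 and 14397 of 25697 probes were detected per array over the 31 arrays. The number detected had a median of 13997.5 in Mog-high and 13831.5 in Mog-low arrays, with overlapping ranges. Component 1 of all kept probes took up 33.0% of the variance and set the batches apart, at 22.8 to 36.8 in batch 2 and -25.9 to -12.7 in batch 1, except for array XX male 6. Its description names batch 1 but it lay at 33.4, among the arrays of batch 2. It is a Mog-low array, and the results that follow are given without it, or with it counted in batch 2, where that matters. The number of arrays limits the precision of every value.

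Genes that differ with sex chromosomes were read as a check of this make-up. Xist, a noncoding RNA of the inactive X chromosome, was detected on 5 of 8 Mog-high and 7 of 8 Mog-low arrays. X-linked Eif2s3x differed by -0.21 (SE 0.136) and Kdm6a by 0.14 (SE 0.133), and neither passed (limma adjusted p = 0.711 and 0.819). The other Kdm6a probe differed by -0.01, so this gene gave no settled direction.

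Differences below are Mog-high minus Mog-low on the log2 scale, from a limma fit with batch as a term over 11711 features (8972 named genes and 2739 probes without a listed name). Levels are log2 signals with the fitted batch effect removed. Of these features 0 passed an adjusted p of 0.05 (0% of features, smallest adjusted p = 0.323). At an unadjusted p under 0.05 there were 948 (8.09%), of which 443 were higher (3.78%) and 505 lower (4.31%) in Mog-high arrays. Without XX female 6 this count was 589. Without XX male 6, 5 features passed, all of them higher in Mog-high arrays. They were Nqo1 at 0.70, the blood gene Hba-a1 at 0.67, Anxa4, which encodes an annexin, at 1.40, and the unnamed probes ILMN_1226259 at 1.44 and ILMN_1222333 at 0.78. With a genotype term added, 0 passed and 546 had an unadjusted p under 0.05 (4.66%).

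The genes of mature oligodendrocytes lay mostly at higher values in Mog-high arrays, although no single one passed. Of the 46 genes in the lists of sheath proteins, lipid enzymes and other mature oligodendrocyte genes, 36 were measured. Their differences were above 0 for 35 of 36, against 48.8% of all features, and had an unadjusted p under 0.05 in the higher direction for 21 of 36, against 3.78% of all features, and in the lower direction for 0. Their median difference was 0.26, against -0.0036 over all features. Where the same gene had further probes, 16 of 17 other probes from 11 genes had the sign of the probe used.

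Among the myelin sheath proteins, 13 of 18 listed genes were measured. They had a median difference of 0.34, with 12 above 0 and 8 at an unadjusted p under 0.05, all higher. Mag encodes myelin-associated glycoprotein, which faces the axon. Its lowest, median and highest levels were 12.91, 13.09 and 13.36 in Mog-high arrays and 12.49, 12.75 and 12.94 in Mog-low arrays, a difference of 0.36 (SE 0.0909, 95% interval 0.17 to 0.55, limma adjusted p = 0.358). All 8 Mog-high arrays lay above the Mog-low median, and the sides overlapped only at their edge. Cnp, an enzyme of uncompacted myelin, differed by 0.13 (95% interval -0.16 to 0.42), with one Mog-low array, XX male 6, above every Mog-high array. Without that array the Cnp difference was 0.23.

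The other sheath genes with large differences were named after their values were seen. Pllp, which encodes plasmolipin, was the one member whose sides did not overlap, a pattern held by 0.0598% of all features in that direction. Its levels were 10.04, 10.23 and 10.37 (lowest, median and highest) in Mog-high arrays and 9.42, 9.96 and 10.03 in Mog-low arrays, a difference of 0.34 (SE 0.0941). Mobp, a basic protein of compact myelin, differed by 0.49 (SE 0.118), and Mal, a proteolipid of membrane rafts, by 0.50 (SE 0.183), or 0.35 without XX male 6. Opalin, a membrane glycoprotein of oligodendrocytes, differed by 0.45, Hapln2, a link protein of the node of Ranvier, by 0.43, the tetraspanin Cd9 by 0.37 and Cldn11, the claudin of myelin tight junctions, by 0.25. In each of these the sides overlapped, and the Mog-high median lay above the Mog-low median.

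The remaining sheath genes had small differences. Tspan2, another tetraspanin, differed by 0.15, Omg, the oligodendrocyte myelin glycoprotein, by 0.04 and Gjb1, a gap junction protein, by -0.02 (95% interval -0.43 to 0.39). Mbp, myelin basic protein, had 3 probes that disagreed. The brightest (ILMN_2737200, mean level 14.9) differed by 0.12 (SE 0.0641), a dimmer one (ILMN_3081854, level 12.8) by 0.59 (SE 0.0961, limma adjusted p = 0.0639 among all probes) and the dimmest (ILMN_3011353, level 9.84) by -0.10 (SE 0.0934).

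Of the enzymes and carriers of myelin lipid, 6 of 7 were measured. All 6 had differences above 0, 5 had an unadjusted p under 0.05, and the median was 0.29. Apod, a lipid carrier of the lipocalin family, had levels of 12.69, 13.24 and 13.43 in Mog-high arrays and 12.24, 12.62 and 13.24 in Mog-low arrays, a difference of 0.56 (SE 0.146). The Apod ranges overlapped, with all 8 Mog-high arrays above the Mog-low median. Ugt8a, which makes galactosylceramide, differed by 0.38, the fatty acid elongase Elovl1 by 0.31 and Fa2h, which hydroxylates the fatty acids of myelin, by 0.26. Gal3st1, which adds the sulfate of sulfatide, differed by 0.22 and the ceramide synthase Cers2 by 0.15.

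Other genes of mature oligodendrocytes were measured for 17 of 21 listed. All 17 differences were above 0, 8 had an unadjusted p under 0.05, and the median was 0.17. Klk6, a secreted serine protease, had levels of 8.76, 9.32 and 9.98 in Mog-high arrays and 7.40, 8.05 and 9.16 in Mog-low arrays, a difference of 1.21 (SE 0.269, limma adjusted p = 0.326). It was the largest difference of the 36 genes, with all 8 Mog-high arrays above the Mog-low median and overlapping ranges. Gsn, the actin-severing protein gelsolin, differed by 0.65 (SE 0.136), Anln, the cytoskeletal protein anillin, by 0.46 and Ppp1r14a, a phosphatase inhibitor, by 0.44. Pdlim2, a PDZ and LIM domain protein, differed by 0.49, and when every probe was tested on its own its other probes, at 0.72 and 0.75, were the 2 that passed. Iron-carrying transferrin, Trf, differed by only 0.13 and the cytokine Il33 by 0.06.

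**Figure D2:**
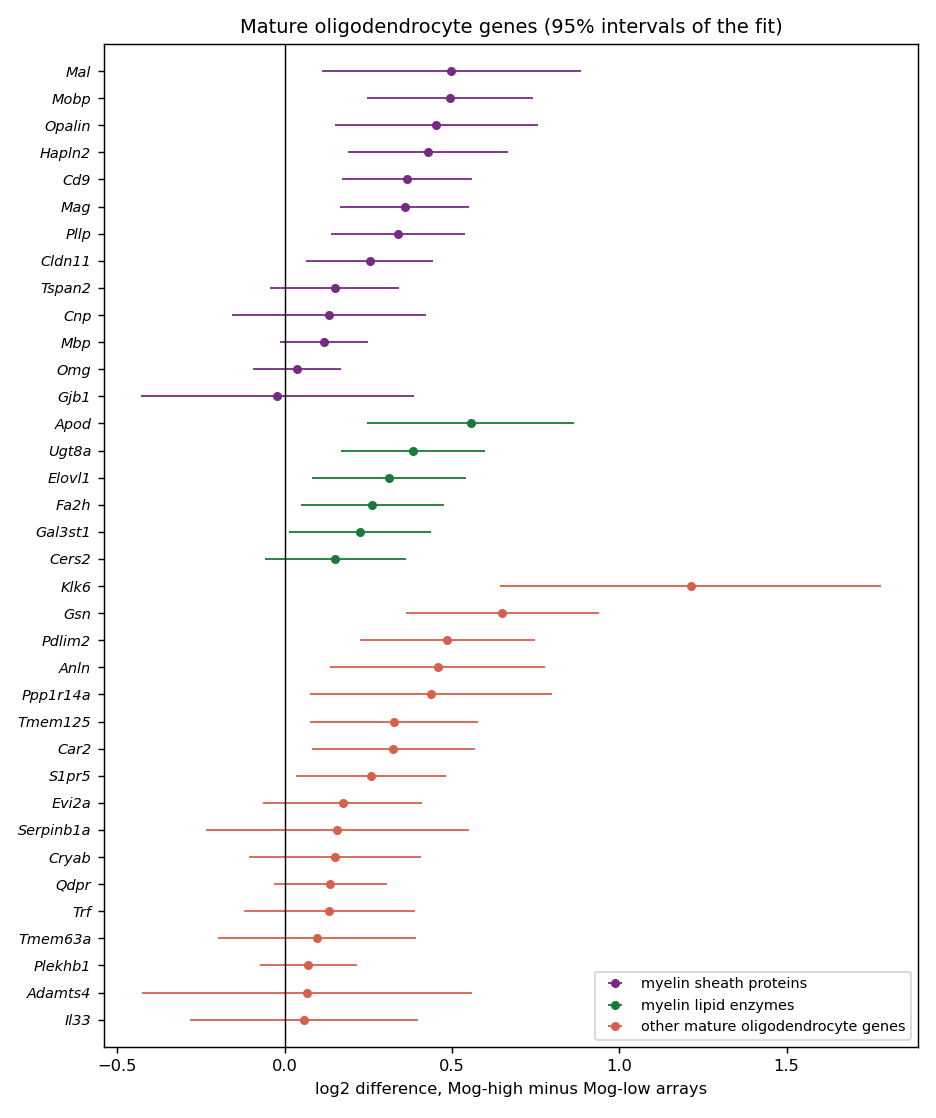
Log2 difference, Mog-high minus Mog-low arrays (horizontal axis), with its 95% interval from the fit, for each of the 36 measured mature oligodendrocyte genes, coloured by list. Points lie right of 0 for all but Gjb1, from 0.04 for Omg to 1.21 for Klk6, and 21 intervals exclude 0 before adjustment for the number of tests.

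Transcription factors of the oligodendrocyte lineage and most precursor genes had differences on both sides of 0. Of 10 listed factors 6 were measured, 0 had an unadjusted p under 0.05 in either direction, and the median was -0.0066. Olig2 differed by 0.05 and Olig1, its close relative, by -0.05 (95% interval -0.20 to 0.09). Precursor genes had a median of -0.0011 over 9 of 13 measured, with Pdgfra, the growth factor receptor that marks precursors, at -0.06 and the proteoglycan gene Cspg4 at -0.12. The members of this list with an unadjusted p under 0.05, all higher, were 3 of 9, against 3.78% of all features. They were the signalling protein gene Bmp4 at 0.77 (SE 0.328), Enpp6 at 0.59 (SE 0.128), a choline phosphodiesterase of newly forming oligodendrocytes, and the sialidase gene Neu4 at 0.32 (SE 0.0824). Other Neu4 probes gave -0.01 and 0.14, so that its value rests on 1 probe. Enpp6 had levels of 8.35, 8.85 and 9.16 in Mog-high arrays and 7.99, 8.26 and 8.49 in Mog-low arrays, which overlapped only at the edge. These names were chosen after their values were seen.

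Genes of cholesterol synthesis, which supplies myelin membrane, had a median difference of 0.05 over 10 of 15 measured, with 0 higher and 1 lower at an unadjusted p under 0.05, against 3.78% and 4.31% of all features. The one was Sc5d, a desaturase of the pathway, at -0.26, and Hmgcs1, an early enzyme of it, differed by 0.08. In the list of neurofilaments and large axons, 7 of 10 genes were measured, with a median of 0.04. Nefm, the medium neurofilament protein, had levels of 10.44, 10.77 and 10.84 in Mog-high arrays and 10.88, 11.06 and 11.37 in Mog-low arrays, a difference of -0.39 (SE 0.0912, limma adjusted p = 0.34). Its sides did not overlap, a pattern of 0.0769% of all features in the lower direction. Parvalbumin, Pvalb, a calcium buffer of fast-spiking neurons, differed by 0.19 and the potassium channel gene Kcna1 by 0.44, each with a 95% interval that held 0.

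**Figure D3:**
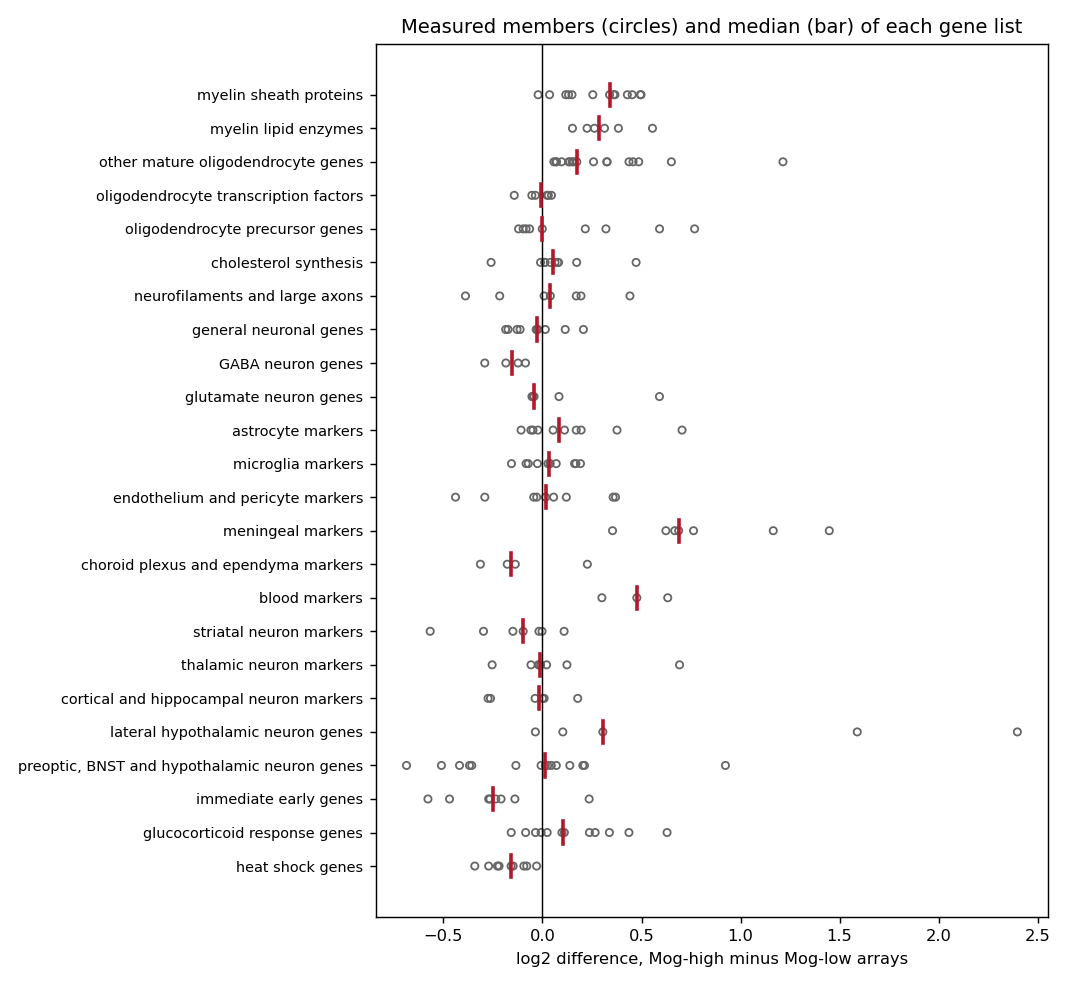
Log2 difference, Mog-high minus Mog-low arrays (horizontal axis), of each measured member (circles) and the list median (bar) for 24 gene lists. The bars of the mature oligodendrocyte lists stand at 0.34, 0.29 and 0.17, those of oligodendrocyte transcription factors and precursor genes near 0, and the meningeal bar at 0.69.

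By batch, the median of the sheath proteins was 0.23 in batch 1 and 0.44 in batch 2, that of the lipid enzymes 0.20 and 0.39, and that of the other mature genes 0.16 and 0.37. Of the 36 genes, 33 had differences above 0 in both batches, against 27% of all features, and 32 had the larger difference in batch 2, where the sides also differ in genotype. With a genotype term, 36 of 36 were above 0 and 13 had an unadjusted p under 0.05 in the higher direction (2.02% of all features), with list medians of 0.25, 0.28 and 0.20. Without XX male 6 these medians were 0.32, 0.32 and 0.18. In batch 2 alone 65 features passed (0.555%), 60 of them higher. They included 3 of the 36 mature oligodendrocyte genes, Klk6, Anln and Apod, and 5 of the 7 measured meningeal markers. In batch 1 alone 0 passed, with 487 at an unadjusted p under 0.05 by limma.

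The side difference was tested for a difference between batches in a fit with an interaction term. The unnamed probe ILMN_3049465 was the 1 feature that passed (0.00854% of features), with differences of 0.07 in batch 1 and -2.84 in batch 2 (interaction -2.91, limma adjusted p = 1.61e-05), and 432 had an unadjusted p under 0.05 (3.69%). With XX male 6 counted in batch 2, and with the submitters' processed values, 0 features passed.

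The 15 arrays that were on neither side give the same measure in arrays the rule did not use to form the sides. Their Mog values spanned only 0.20 log2 units, of 1.05 over all arrays. Against Mog as a continuous term with batch, 0 of 11711 features passed (0%), and 728 had an unadjusted p under 0.05 by limma (6.22%). Slopes above 0 were found for 30 of the 36 mature oligodendrocyte genes, against 50% of all features, and their median slope was 0.57 per log2 unit of Mog. At an unadjusted p under 0.05 there was 1 of 36, Fa2h at 2.34, against 3.43% of all features in that direction. In the same arrays slopes were above 0 for 8 of 8 thalamic markers, with a median of 2.74. They were above 0 for 7 of 7 genes of neurofilaments and large axons (median 2.04) and 9 of 10 general neuronal genes (median 0.73). Among microglia markers it was 1 of 10, and among glucocorticoid response genes 0 of 12. Slopes above 0 were thus not particular to the mature oligodendrocyte genes. Opalin had a slope of 2.96 and Klk6 of 3.08, while Gjb1 had -1.63 and Cers2 -0.75. Nefm had a slope of 1.34, opposite in sign to its side difference.

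**Figure D4:**
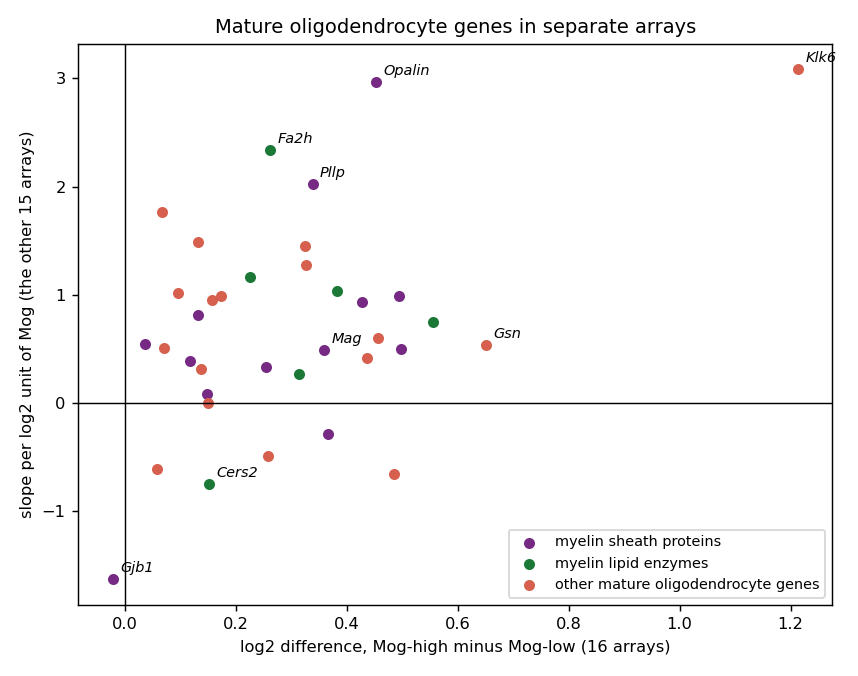
Slope per log2 unit of Mog in the 15 arrays between the sides (vertical axis) against the log2 difference, Mog-high minus Mog-low, in the other 16 arrays (horizontal axis) for the 36 mature oligodendrocyte genes. 30 points lie above 0 on the vertical axis, and Gjb1 alone is below 0 on both axes.

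Over all 31 arrays, with Mog as a continuous term and batch, 8 features passed (0.0683%). This fit contains the arrays of both sides and is no separate evidence. Mag had a slope of 0.63 per log2 unit of Mog (SE 0.0912, limma adjusted p = 0.000973), and Klk6 of 2.09 and Ppp1r14a of 0.90 were the other mature oligodendrocyte genes among the 8. The rest were Gamt, which makes creatine, at 0.82, Nqo1, a quinone reductase, at 0.92, Pigz, a mannosyltransferase of membrane anchors, at 0.65, Tprn, which encodes taperin, at 0.45, and Agtrap, a protein that binds the angiotensin receptor, at -0.66. Leaving out 1 array at a time gave between 1 feature (without XXY male 7) and 32 (without XX male 6), and Mag passed in all 31 of these fits, with adjusted p from 0.000325 to 0.00978. The count moved by over 1.5 times also without XX females 3 and 5 (4 and 5), XX female 6 (2), XX males 1 and 5 (5 each), XXY males 4 and 8 (4 and 5), XY males 1, 4, 6, 7 and 8 (4 each), and XY males 2, 3 and 5 (14, 19 and 17). With a genotype term 4 passed, namely Mag, Gamt, Pigz and Fah, an enzyme of tyrosine breakdown.

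The 5 named genes of smallest p were Hba-a1, Slc38a9, Nqo1, Ak4 and Mtcl1, all at a limma adjusted p of 0.323. Slc38a9, a lysosomal amino acid transporter, had levels of 7.65, 7.93 and 8.23 in Mog-high arrays and 8.23, 8.54 and 8.80 in Mog-low arrays, a difference of -0.58 (SE 0.111). Mtcl1, a microtubule crosslinking protein, had levels of 9.66, 9.79 and 9.96 in Mog-high arrays and 9.99, 10.05 and 10.18 in Mog-low arrays, a difference of -0.28 (SE 0.0588). In both genes the sides did not overlap, a pattern of 0.0769% of all features in the lower direction. Their slopes in the 15 arrays between had the opposite sign, at 3.24 and 0.72. Another Slc38a9 probe differed by -0.15, so that the larger difference rests on 1 probe. Nqo1 differed by 0.65 (SE 0.124) and the mitochondrial adenylate kinase gene Ak4 by -0.37 (SE 0.0759), and their slopes in the arrays between, 1.15 and -0.80, had the sign of the side difference.

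Markers of tissues that border the region were examined as well. The meningeal markers, genes of the membranes around the brain, were above 0 for 7 of 7 measured of 10, with a median of 0.69, yet 0 of 7 had an unadjusted p under 0.05. Ogn, a matrix proteoglycan, had levels of 6.48, 9.41 and 9.81 in Mog-high arrays and 6.03, 6.40 and 10.39 in Mog-low arrays, a difference of 1.45 (SE 0.748), and the transporter gene Slc6a13 differed by 1.16 (SE 0.612). The list mean per array ran between -1.01 and 1.06 in Mog-high arrays and between -1.28 and 1.76 in Mog-low arrays, where the highest was XX male 6. The list median was 0.09 in batch 1 and 1.90 in batch 2, and 0.99 without XX male 6. In batch 2 alone, 5 of the 7 passed the adjusted threshold of limma, with Ogn at 3.28, Slc6a13 at 2.60, Igf2, a growth factor, at 1.97, Fmod, a matrix proteoglycan, at 1.90 and Igfbp2, which binds such growth factors, at 1.72. In the 15 arrays between, the slope was above 0 for 0 of 7. The part of meningeal tissue in the myelin result was not tested.

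Blood markers were above 0 for 3 of 3 measured of 5, with a median of 0.48. Hba-a1, an alpha globin of red cells, had levels of 13.79, 14.14 and 14.34 in Mog-high arrays and 13.11, 13.45 and 13.85 in Mog-low arrays, a difference of 0.63 (SE 0.113), and Alas2, which starts heme synthesis in red cells, differed by 0.48. The globin ranges overlapped only at the edge. The blood list mean ran between -0.19 and 0.54 in Mog-high arrays and between -0.83 and 0.34 in Mog-low arrays. In the arrays between, the slope was above 0 for 0 of 3 blood markers. Their part in the result was likewise not tested.

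Genes of lateral hypothalamic neurons had a median difference of 0.30 over 5 of 6 measured. Hcrt, the precursor of the orexins, had levels of 6.32, 9.95 and 12.62 in Mog-high arrays and 6.14, 6.93 and 11.24 in Mog-low arrays, a difference of 2.40 (SE 0.833, limma adjusted p = 0.502), the largest above 0 of all features. Pmch, the precursor of melanin-concentrating hormone, differed by 1.59 (SE 0.818). Ranges were wide on both sides and overlapped, with XX male 5 lowest in Pmch among the Mog-high arrays at 8.18 and XX female 1 highest in Hcrt among the Mog-low arrays at 11.24. The part of such tissue in the myelin result was not tested.

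**Figure D5:**
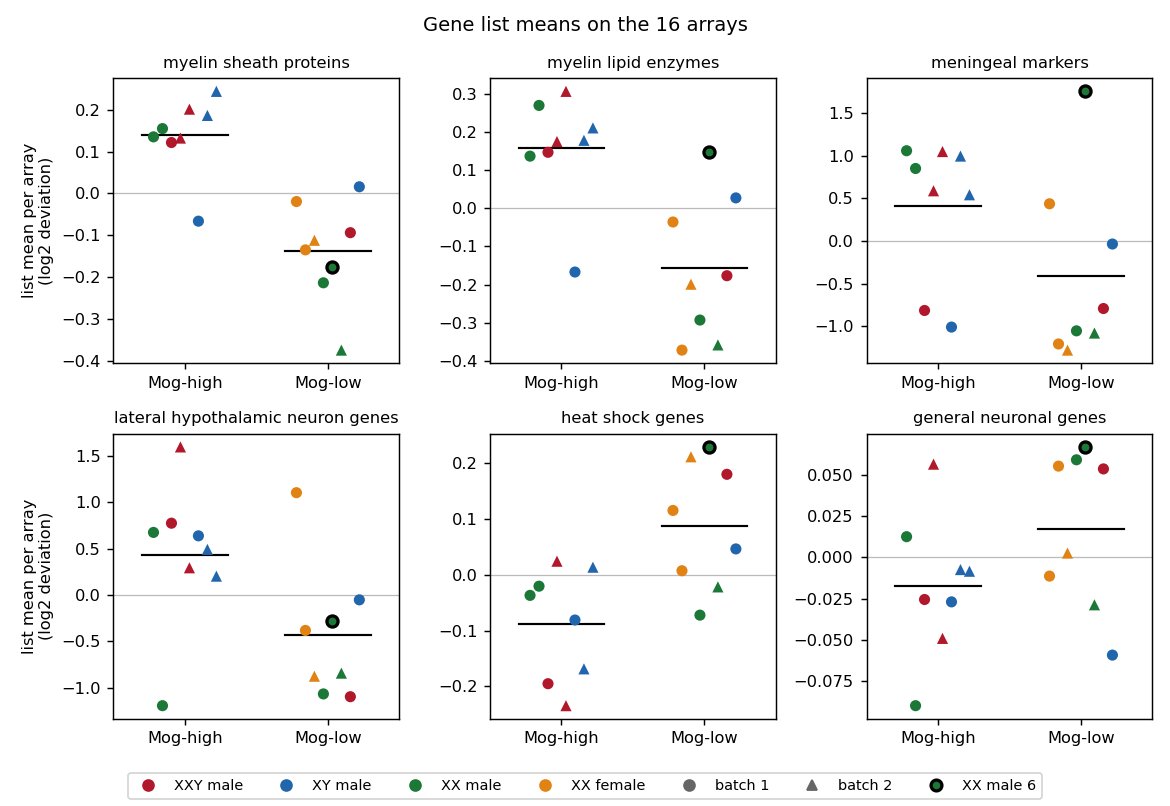
Mean log2 deviation of a gene list on each of the 16 arrays (vertical axes), Mog-high left and Mog-low right, after removal of the fitted batch effect; colour is genotype, symbol is batch, the bar is the mean of a side and the outlined point is XX male 6. The sheath means lie between -0.07 and 0.24 in Mog-high arrays and between -0.37 and 0.02 in Mog-low arrays, while the meningeal means overlap from end to end.

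Among the genes of the preoptic area, BNST and hypothalamus, 15 of 21 were measured, with a median of 0.01, 1 higher and 4 lower at an unadjusted p under 0.05, against 3.78% and 4.31% of all features. Avp, the vasopressin precursor, had levels of 12.32, 13.03 and 13.42 in Mog-high arrays and 11.14, 12.06 and 13.15 in Mog-low arrays, a difference of 0.92 (SE 0.245). Calcr, the calcitonin receptor, had levels of 5.78, 6.37 and 7.02 in Mog-high arrays and 6.81, 7.01 and 7.52 in Mog-low arrays, a difference of -0.69 (SE 0.174), while another Calcr probe gave -0.18. Both genes had overlapping sides and a limma adjusted p of 0.358. All 3 XX females among the 16 arrays were Mog-low. Avp was lowest in XX females 6 and 2 (11.14 and 11.48), and Calcr was highest in XX female 6 (7.52). The other XX females did not all follow, with Avp at 12.54 in XX female 1. Calcr was at 6.95 and 7.03 in XX females 1 and 2, below XX males 6 and 3 at 7.29 and 7.19. Kiss1, of the same list, was highest in XX females 1, 6 and 2, at 7.72, 7.96 and 8.48. Genotype and Mog level thus cannot be fully told apart in these genes.

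General neuronal genes had a median of -0.03 over 10 of 12 measured. At an unadjusted p under 0.05, 0 were higher and 1 lower, against 3.78% and 4.31% of all features. Stx1a, a syntaxin of synaptic release, differed by 0.21 and Elavl4, an RNA-binding protein of neurons, by -0.19. Other Elavl4 probes gave -0.22 and 0.18, so its direction was not settled. All 4 measured GABA neuron genes of 8 were below 0, with a median of -0.15, and Gad1, which makes GABA, at -0.29 (SE 0.131) and the homeobox gene Dlx2 at -0.18. Glutamate neuron genes had a median of -0.04 over 5 of 8, with the vesicular transporters Slc17a7 at 0.59 (SE 0.401) and Slc17a6 at 0.08. None of these lists had a member with an unadjusted p under 0.05 in the higher direction, against 3.78% of all features. At that share, 0 among so few genes is no result about neurons. In the lower direction it was 1 of the 4 GABA neuron genes and 0 of the 5 glutamate neuron genes, against 4.31%.

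Striatal neuron markers had a median of -0.10 over 7 of 11, with the dopamine receptor Drd2 at -0.57 (SE 0.197) and Drd1 at -0.30. The Mog-low array XY male 2 had a striatal list mean of 1.46, with XX male 6 next at 0.55. Its Drd1 level was 10.58, with XX male 6 next among the Mog-low arrays at 8.72. The Drd1 difference thus rests largely on 1 array. Drd2 had levels of 7.01, 7.34 and 7.65 in Mog-high arrays and 7.36, 7.80 and 8.76 in Mog-low arrays, all 8 Mog-high arrays below the Mog-low median. Thalamic markers had a median of -0.01 over 8 of 11, with the kinase Prkcd at 0.69 (SE 0.449) and the homeobox gene Gbx2 at -0.25. Cortical and hippocampal markers had a median of -0.02 over 6 of 11, with the transcription factors Tbr1 at -0.27 and Cux2 at -0.26.

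Astrocyte markers had a median of 0.08 over 10 of 12, with 2 higher at an unadjusted p under 0.05, against 3.78% of all features. Gfap, the intermediate filament of astrocytes that is abundant in fibre tracts, had levels of 9.72, 9.88 and 10.43 in Mog-high arrays and 8.91, 9.19 and 9.79 in Mog-low arrays, a difference of 0.70 (SE 0.151), and the water channel Aqp4 differed by 0.38. The ranges of Gfap overlapped only at the edge, and the astrocyte enzyme gene Aldoc differed by -0.11. Microglia markers had a median of 0.03 over 10 of 14, with the chemokine receptor Cx3cr1 at 0.19 and Aif1 at 0.17. Endothelium and pericyte markers had a median of 0.02 over 9 of 13, with the potassium channel gene Kcnj8 at -0.44 and Rgs5, a regulator of G proteins, at 0.37. Choroid plexus and ependyma markers had a median of -0.16 over 4 of 10, with transthyretin, Ttr, at -0.31 (SE 0.525) and Kl, which encodes klotho, at 0.23.

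Of the immediate early genes, which neuronal activity induces, 7 of 8 measured of 14 were below 0, against 5993 of 11711 features, with a median of -0.25. That median was -0.32 in batch 1, -0.02 in batch 2 and -0.13 with a genotype term. In the 15 arrays between, the slope was above 0 for 4 of 8. Fosb had levels of 5.72, 6.01 and 6.62 in Mog-high arrays and 6.17, 6.63 and 7.23 in Mog-low arrays, a difference of -0.58 (SE 0.155, limma adjusted p = 0.358), and its relative Fos differed by -0.47. Heat shock genes were below 0 for 9 of 9 measured of 10, against 5993 of 11711 features, with a median of -0.16. Among them 2 had an unadjusted p under 0.05, against 4.31% of all features. The chaperones Hspa1a and Hsp90aa1 differed by -0.34 (SE 0.103) and -0.27. Further probes of Hspa8 and Hspd1 gave 0.08 and 0.05, so the count of 9 depends on the probe used. Glucocorticoid response genes had a median of 0.10 over 12 of 13, with the lipid droplet gene Plin4 at 0.63 (SE 0.594) and the kinase Sgk1 at 0.44 (SE 0.345).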

How the data were processed

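The arrays were single-colour Illumina bead arrays of total RNA. Per the file headers, the deposited scanner table holds mean bead intensity and a detection p-value per probe, with bead standard errors and numbers used for checks alone. The processed values deposited by the authors, for 12980 probes, are on a log2 scale, judged by their correlation of 0.997 with the log2 values normalized here. The submitters' processing notes name limma; for scanner software and batch handling, the versions and settings were not given in the sources used here.

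Intensities were normalized here by neqc (limma 3.58.1, R 4.3.3, offset 16, background from detection p-values). A filter kept the 14989 probes detected (p-value under 0.05) on 7 arrays or more, with 1 probe per named gene, that of highest mean. Of 12250 listed probes with a symbol, 5 symbols were updated through RefSeq gene tables and 1 was unmatched. Sides were fitted with batch by limma, with Benjamini-Hochberg adjustment over 11711 features, and the fit was tested on simulated data. A list mean is the mean log2 deviation of its members on an array.

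Members and lists were chosen with earlier results of these data known. Named by rule were the 5 genes of smallest p, the 2 members of largest difference of each list beyond the oligodendrocyte, cholesterol and axon lists, Mag and Cnp, and Xist, Eif2s3x and Kdm6a; other genes were named after their values were seen. Alternatives covered values, background, normalization, filter, covariates, ranking, arrays per side and left-out arrays; 4 were added after seeing the data.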

Additional observations from a re-analysis of the deposited data

Results flagged for a closer look

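Within each side of 8 arrays, an array was picked out when its gap to the nearest other array was, as a share of the side's whole range, above the 95% critical value of Dixon's test. This was so for 17 of 164 gene groups and 4 of 48 list groups, where chance picks out about 1 in 20. Some genes named above, Kcna1 among them, were not screened in this way. Levels are log2 signals with the fitted batch effect removed.

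XX male 6, whose signals lie among those of the other batch, stood apart from the other Mog-low arrays in Mal (9.64), Cnp (12.62), Omg (12.56), Tmem63a (9.40), Bmp4 (8.45) and Aqp4 (10.16). XX male 3 stood apart on the same side in Neu4 (5.79), XX female 1 in Hcrt (11.24), and XY male 2 in Eif2s3x (10.82) and Xist (5.13). XY male 2 was the 1 XY male, and so the 1 animal with a single X chromosome, among the Mog-low arrays. The Mog-high arrays XY males 3, 7 and 8 had Xist at 4.53, 5.23 and 4.99 and Eif2s3x at 10.73, 10.77 and 10.68.

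Among the Mog-high arrays, XY male 3 was lowest in the list means of sheath proteins (-0.0663), lipid enzymes (-0.167) and other mature oligodendrocyte genes (-0.132), and stood apart in Elovl1 (9.25) and Dlx2 (8.35). XX male 5 stood apart in Slc17a7 (4.96), Pmch (8.18), Fosb (6.62) and the thalamic list mean (-0.932). XY male 7 stood apart in Omg (12.72) and XY male 8 in Adamts4 (8.08).

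The difference between Mog-high and Mog-low arrays differed between the batches for the unnamed probe ILMN_3049465, by -2.91 (batch 2 minus batch 1) in the interaction test.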

How the results depend on the processing

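The count of 0 genes past the threshold stayed at 0 with the submitters' values, no background correction, cyclic loess, either filter setting, no batch term, a genotype term, XX male 6 counted in batch 2, a level of their own for the arrays between, 6 or 10 arrays per side, rankings by normalized Mog or within batch, and batch 1 alone. It became 2 with every probe on its own, 8 with a slope over 31 arrays, 15 with that slope and XX male 6 in batch 2, 4 with that slope and genotype, 65 in batch 2 alone, and 76 (70 higher, 6 lower) when arrays were ranked by the other sheath genes, which then chose the sides. The ranking by the other sheath genes kept 10 arrays on their side, with 0 moved to the opposite side. Left-out arrays gave 0 to 5. The array number as a replicate block in place of batch gave 0 calls and 810 genes at an unadjusted p under 0.05. Residuals of same-numbered arrays correlated at 0.0418 on average, against -0.0406 for arrays of different numbers. Of the 31 arrays, 10 correlated best with an array of their own number. These values do not settle whether the numbers pair the arrays. Unadjusted counts were 1452 of 22419 features (6.48%) with no filter and 1431 of 11711 (12.2%) with the sheath ranking, against 948 of 11711 (8.09%). The cause of these changes was not tested.

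List medians moved to 0.228 (sheath, batch 1 alone), 0.370 (other mature genes, batch 2 alone), 1.90 (meningeal, batch 2 alone) and 0.213 (sheath, genotype term and XX male 6 in batch 2). Left-out arrays gave 0.283 to 0.367 for sheath proteins, 0.254 to 0.347 for lipid enzymes, 0.136 to 0.246 for other mature genes and 0.491 to 1.01 for meningeal markers. The interaction count of 1 became 0 with the submitters' values and 0 with XX male 6 in batch 2.

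Signs were followed across settings for the genes named by rule, the mature oligodendrocyte genes, and Enpp6, Bmp4, Neu4, Bcas1 and Nefm. Other genes, such as Olig2 and those of cholesterol synthesis, were not followed, nor were single left-out arrays except XX male 6. Differences of the opposite sign among the genes followed, none past the threshold, were these. Gjb1 gave 0.00347 without background correction, 0.0400 with genotype, 0.0409 with the replicate block, 0.0552 with 6 arrays per side, 0.00562 ranked by normalized Mog, 0.0888 with the sheath ranking and 0.44 in batch 2 alone. Without a batch term Il33 gave -0.0110, Dlx2 0.000819, Slc17a6 -0.00856, Cx3cr1 -0.0202 and Kdm6a -0.0568. Xist gave 0.17 with genotype. With the replicate block Slc17a6 gave -0.038, Kl -0.024 and Drd1 0.14. Ttr gave 0.10 in the slope over 31 arrays, 0.066 with 10 arrays per side, 0.29 ranked within batch, 0.99 with the sheath ranking and 0.095 in batch 2 alone. Il33 gave -0.049 ranked within batch and Drd1 0.21 with the sheath ranking. In batch 1 alone Tmem63a gave -0.017, Slc17a6 -0.079 and Plin4 -0.10. In batch 2 alone Adamts4 gave -0.18, Gbx2 0.40 and Fos 0.034. Adamts4 gave -0.0280 without XX male 6.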
